A study of Mus musculus with 12 samples.

Results

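In all, 6 genes of the red blood cell were followed in the descending aorta of old and young mice: the globin genes Hba-a1, Hbb-b1 and Hbb-b2, the haem synthesis genes Alas2 and Fech, and the membrane gene Slc4a1. They were found as the gene probes whose name on the array equals one of these symbols. This gave 6 probes, 1 for each gene, of 55681 gene probes on the array. The samples were 6 male C57BL/6 mice aged 20 months and 6 male C57BL/6 mice aged 6 months, with no treatment or engineered allele named, 1 array per mouse. The vessels had been rinsed with cold saline through the left ventricle and freed of surrounding fat and connective tissue before freezing, per the labels' protocols. The question for these genes is how much red cell RNA each sample held, whether the genes moved together from array to array, and whether they differed between the ages.

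Haemoglobin is built from alpha and beta globin chains, each holding a haem group, and is made by erythroid precursors and by reticulocytes, the young red cells that still carry messenger RNA. Mature red cells of mammals have no nucleus and make no new messenger RNA, so globin messages in a vessel wall are commonly read as RNA of blood left in the sample. Alas2 encodes the erythroid form of the first enzyme of haem synthesis and Fech the last enzyme, ferrochelatase, which all haem-making cells use. Slc4a1 encodes band 3, the anion exchanger of the red cell membrane. C57BL/6 mice carry the Hbb haplotype whose adult beta genes are now named Hbb-bs and Hbb-bt, while Hbb-b1 and Hbb-b2 are the names of the other common haplotype and are kept here as the array gives them.

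Each probe is a stretch of 60 bases on 1 spot. The Hba-a1 probe lies on chromosome 11 (32183955 to 32184014, mm9) and its accession list names both alpha genes, Hba-a1 and Hba-a2, so it cannot tell these near-identical copies apart. The Hbb-b1 probe lies on chromosome 7 (110961105 to 110961164) and was made for the message that RefSeq now names Hbb-bt. The Hbb-b2 probe is not placed on the genome in the array files, and because the adult beta genes are near-identical, how each beta probe divides their messages is uncertain. The Alas2 probe lies on the X chromosome (147004993 to 147005052) and the Slc4a1 probe on chromosome 11 (102210256 to 102210315). The files place the probes in messages but do not say in which exon. The Hba-a1 and Hbb-b2 probe sequences are shown because the globin values below rest on what these short stretches catch.
Hba-a1 probe: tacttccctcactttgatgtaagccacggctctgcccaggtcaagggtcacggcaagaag
Hbb-b2 probe: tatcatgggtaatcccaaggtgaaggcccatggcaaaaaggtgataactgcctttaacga

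The upstream sequences of 3 members whose signals moved together across arrays are shown as background. Whether their motifs bear on that shared course was not tested. Promoters of the members were sought in RefSeq (GRCm38.p6), except that of Fech, which was not looked up. They were found for 3 genes, Hba-a1, Hbb-b1 under its RefSeq name Hbb-bt, and Alas2. None was found for Slc4a1 or Hbb-b2. The 250 bases before the start of each gene are printed 5′ to 3′ along the gene. Capitals mark 4 motifs: the GATA motif, the site of the erythroid factor Gata1 (AGATAA or AGATAG, and TGATAA or TGATAG, both strands), CACCC, the core of the site of Klf1 (both strands), CCAAT (both strands), and TATAA (the strand of the gene). No match of one motif overlaps a match of another in these 3 sequences. The Hba-a1 window is chr11:32283422-32283671 (plus strand), the Hbb-bt window chr7:103813924-103814173 (minus strand) and the Alas2 window chrX:150547167-150547416 (plus strand).
Hba-a1: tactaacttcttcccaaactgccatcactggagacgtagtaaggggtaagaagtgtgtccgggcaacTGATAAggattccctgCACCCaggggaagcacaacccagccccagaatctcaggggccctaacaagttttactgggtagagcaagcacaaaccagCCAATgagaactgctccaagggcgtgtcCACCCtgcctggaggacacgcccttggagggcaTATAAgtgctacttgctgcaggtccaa
Hbb-bt: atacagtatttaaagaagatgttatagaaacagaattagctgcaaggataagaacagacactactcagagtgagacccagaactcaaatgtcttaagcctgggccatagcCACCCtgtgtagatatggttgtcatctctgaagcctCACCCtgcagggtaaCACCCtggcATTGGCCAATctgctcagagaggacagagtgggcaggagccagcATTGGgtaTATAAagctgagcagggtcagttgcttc
Alas2: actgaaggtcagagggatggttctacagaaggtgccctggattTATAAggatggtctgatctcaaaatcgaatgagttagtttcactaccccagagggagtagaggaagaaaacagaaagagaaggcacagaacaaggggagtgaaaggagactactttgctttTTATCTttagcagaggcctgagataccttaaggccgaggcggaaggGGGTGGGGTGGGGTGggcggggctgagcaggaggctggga
The GATA letters stand in the Hba-a1 window from 183 to 178 bases and in the Alas2 window from 86 to 81 bases before the start (there on the opposite strand), and in the Hbb-bt window these letters were not found. CACCC occurs 2 times for Hba-a1, 3 times for Hbb-bt and 3 times for Alas2. Over the 32851 promoters of the same length, 26.5% hold a GATA match, 52.0% CACCC, 33.8% CCAAT, and 5255 of them TATAA, so each match alone is common.

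Each of 3 slides carried 2 mice of either age. Per array, 47.5% to 55.8% of gene probes exceeded background clearly. All 10 smooth muscle markers and all 10 endothelial markers on the array were above background on all 12 arrays. So were all 12 markers of white and brown fat, so genes of fat were detected in every sample as well. Column 3 of the slides held every 20-month array and no 6-month array, so column and age cannot be told apart. Heart muscle markers were high in 20 months replicate 1 and 6 months replicate 1, and T and NK cell markers in 6 months replicate 4. Values without these 3 arrays are given beside the age differences, the relations among members and the marker lists.

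All signals below are log2 of the processed signal minus the 75th percentile of the gene probes of the same array. All 6 members stood well above background on all 12 arrays, and none was saturated on any. Hba-a1 had a lowest, median and highest signal of 6.22, 6.88 and 7.68 at 20 months, against 5.95, 6.23 and 7.08 at 6 months. Replicates 2 and 3 at 20 months were the highest of all, at 7.67 and 7.68, followed by replicate 6 at 20 months and replicate 5 at 6 months, and the ages overlapped. Hbb-b1 ran from 4.30 over a median of 5.02 to 5.88 at 20 months, against 4.02, 4.54 and 5.59 at 6 months. Hbb-b2 ran from 2.56 over 3.39 to 4.30 at 20 months, against 2.28, 2.73 and 3.69 at 6 months. In both beta genes the same 3 arrays led: 20 months replicates 2 and 3 and 6 months replicate 5. From the lowest to the highest of the 12 arrays the signal differed by 3.33-fold for Hba-a1, 3.63-fold for Hbb-b1 and 4.06-fold for Hbb-b2.

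Alas2, the first step of haem synthesis in erythroid cells, ran from 0.00 over a median of 0.54 to 1.28 at 20 months, against -0.53, -0.06 and 1.02 at 6 months. It spanned 3.50-fold over the arrays, and its 3 highest arrays were those of the beta globins. Slc4a1 had a dim probe, with processed signals of 33.9 to 68.9 over the 12 arrays. Its signal ran from -2.48 over -2.30 to -1.72 at 20 months, against -2.81, -2.46 and -1.81 at 6 months, a span of 2.12-fold. Fech ran from 3.35 over 3.71 to 3.96 at 20 months, against 3.54, 3.73 and 4.18 at 6 months, a span of 1.78-fold. Its highest array was 6 months replicate 6 and its lowest 20 months replicate 6, neither of them at an end of the globin order. The SD within an age lay at the percentiles 94.5 (Hba-a1), 95.7 (Hbb-b1), 96.3 (Hbb-b2) and 96.0 (Alas2) of the 27579 probes tested, at 80.9 for Slc4a1 and at 55.2 for Fech. Globins and Alas2 were thus among the probes that differed most between mice of one age, and Fech was ordinary in this respect.

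**Figure D1:**
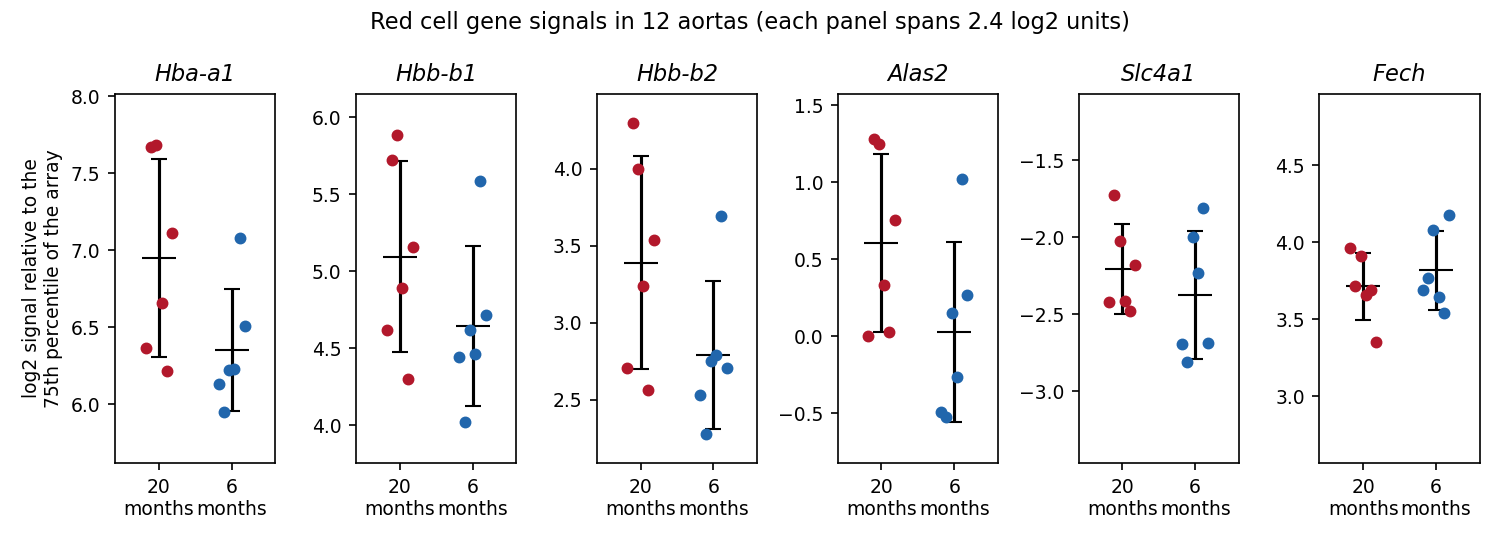
Log2 signal relative to the array's 75th percentile (y axis) of the 6 red cell genes at 20 months (red, left) and 6 months (blue, right). Points are arrays of single mice, bars show mean ± SD (n = 6 each), every panel spans the same number of log2 units, and the ages overlap in all 6 genes.

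Between the ages the 3 globin genes and Alas2 had positive differences that did not pass the test. Hba-a1 averaged 6.95 ± 0.64 at 20 months and 6.35 ± 0.40 at 6 months (SD, n = 6 each), a log2 difference of 0.60 ± 0.28 (SE) or 1.51-fold. Its adjusted p was 0.658 (limma, Benjamini-Hochberg over all 27579 probes). Hbb-b2 averaged 3.39 ± 0.69 at 20 months and 2.79 ± 0.48 at 6 months (difference 0.60 ± 0.31, adjusted p = 0.701, limma). Hbb-b1 averaged 5.09 ± 0.62 at 20 months and 4.64 ± 0.52 at 6 months (difference 0.45 ± 0.29, adjusted p = 0.7503, limma). For Alas2 the means were 0.61 ± 0.58 at 20 months and 0.03 ± 0.59 at 6 months, a difference of 0.58 ± 0.30 with an adjusted p of 0.704 (limma). Slc4a1 differed by 0.17 ± 0.19, from means of -2.21 ± 0.29 at 20 months and -2.37 ± 0.41 at 6 months. Fech differed by -0.10 ± 0.13, from means of 3.72 ± 0.22 at 20 months and 3.82 ± 0.25 at 6 months. None of these differences passed the test against the spread between mice of one age.

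None of the 6 members was called at an adjusted p under 0.05 (limma), beside 0.257% of all probes tested (0.221% higher and 0.0363% lower at 20 months). At an unadjusted p under 0.05 there was 1 member, Hba-a1, higher at 20 months, beside 7.56% of all probes in either direction and 4.13% higher. The 6 arrays at 20 months and the 6 at 6 months overlapped in every member, beside 0.769% of probes without overlap. The differences of Hba-a1, Hbb-b2 and Alas2 were larger than those of 99.1%, 99.1% and 99.0% of probes, and that of Hbb-b1 than 98.2%, so their size was at the upper end while their spread was too. The 95% intervals of the fold allow 1.002 to 2.29 for Hba-a1, 0.88 to 2.13 for Hbb-b1, 0.96 to 2.39 for Hbb-b2 and 0.95 to 2.34 for Alas2. They allow 0.84 to 1.49 for Slc4a1 and 0.76 to 1.13 for Fech. Without the 3 arrays high in heart muscle or T and NK cell markers the differences were 0.63 for Hba-a1, 0.45 for Hbb-b1, 0.67 for Hbb-b2, 0.50 for Alas2, 0.16 for Slc4a1 and -0.23 for Fech, and none was called. In a bulk tissue such as this, fewer cells of a type and less RNA per cell cannot be told apart.

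**Figure D2:**
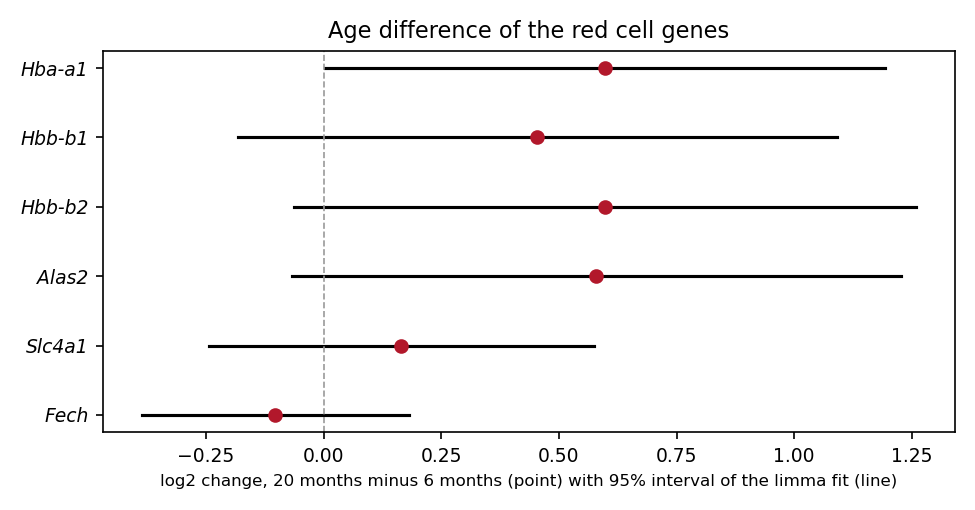
Log2 change at 20 months minus 6 months (x axis, points) of the 6 red cell genes with the 95% interval of the limma fit (lines), n = 6 arrays at each age. The globins and Alas2 lie between 0.45 and 0.60, with intervals that reach 0 or nearly so, and Fech lies just below 0.

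The slides did not show 1 size of difference. Hba-a1 differed by 0.93 on slide 1, 0.23 on slide 2 and 0.63 on slide 3, with 2 arrays of each age on each. Hbb-b1 differed by 0.85, 0.00 and 0.51, Hbb-b2 by 0.99, 0.14 and 0.66, and Alas2 by 0.83, 0.17 and 0.75 on the same slides. Slc4a1 had 0.33, -0.27 and 0.44. The small difference on slide 2 goes with 6 months replicate 5, the young mouse with the highest globins, which lies there, and the part of that array in it was not tested.

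From array to array the globins and Alas2 rose and fell together. Among Hba-a1, Hbb-b1, Hbb-b2 and Alas2 the 6 pairs had Pearson r from 0.952 to 0.978 and Spearman rho from 0.895 to 0.979 over the 12 arrays. The permutation p of r was 1e-05 for each of them, the smallest that 100000 permutations can give (adjusted over the 15 pairs of members 2.5e-05), and the adjusted p of rho was at most 0.000536. Without the 2 arrays farthest from the median of the first gene, r was 0.913 to 0.962. Within the 6 mice at 20 months it was 0.968 to 0.996 (exact permutation p from 0.00139 to 0.00694), and within the 6 at 6 months 0.914 to 0.980 (exact permutation p from 0.00139 to 0.0167). After the mean of each slide was taken out it was 0.956 to 0.989. Without the 3 arrays high in markers of other tissues it was 0.968 to 0.987. The relation among these 4 genes therefore held at each age, across slides and without the extreme arrays. How the 2 beta probes divide the beta messages is uncertain, so their r of 0.968 may not be that of separate messages.

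Slc4a1 followed the same course less tightly, with r from 0.736 to 0.825 and rho from 0.720 to 0.902 to these 4 genes. Its permutation p, adjusted over the 15 pairs, ran from 0.0021 to 0.0102 for r and from 0.000425 to 0.0146 for rho. Without the 2 farthest arrays r was 0.610 to 0.745, and the relation to Hba-a1 then had a permutation p of 0.0610. At 20 months r was 0.889 to 0.944, and at 6 months 0.654 to 0.827 with exact permutation p from 0.00417 to 0.142. The relation between Slc4a1 and Hba-a1 lost its call with normexp background correction (r = 0.586, adjusted permutation p = 0.0686) and without 20 months replicate 2 (r = 0.639, adjusted permutation p = 0.0505). No relation of Fech to another member passed: its r to them was -0.298 to -0.148 and its rho -0.294 to -0.105, with permutation p of at least 0.346 for r and 0.355 for rho. The sign of each of these 5 weak r values turned under 1 of the 20 alternatives run.

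**Figure D3:**
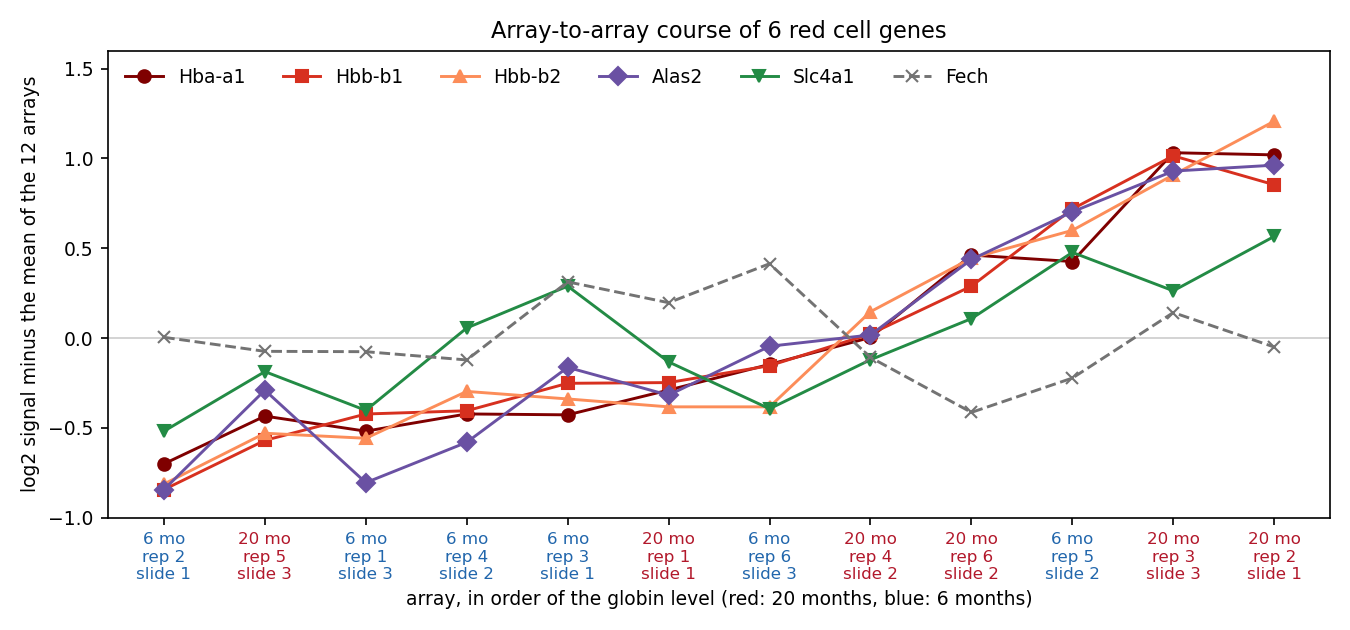
Log2 signal minus the 12-array mean (y axis) of each red cell gene on the 12 arrays, ordered from the lowest to the highest globin level (x axis, with age, replicate and slide). The lines of Hba-a1, Hbb-b1, Hbb-b2 and Alas2 lie close together, Slc4a1 rises less steeply and Fech (dashed) takes another course.

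**Figure D4:**
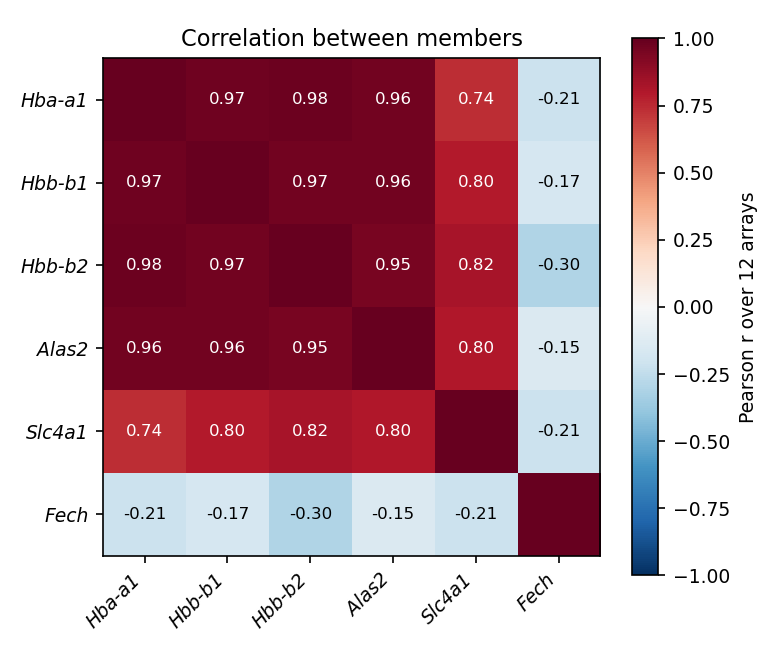
Pearson r between each pair of red cell genes over 12 arrays, with colour from -1 to 1. The 6 pairs among Hba-a1, Hbb-b1, Hbb-b2 and Alas2 lie between 0.95 and 0.98, the Slc4a1 pairs with them between 0.74 and 0.82, and the Fech pairs between -0.30 and -0.15.

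A globin level was formed for each array as the mean of the 3 globin signals. It was highest in 20 months replicates 2 (5.90) and 3 (5.86), 6 months replicate 5 (5.45) and 20 months replicate 6 (5.27), and lowest in 6 months replicate 2 (4.09). The level had r = -0.28 with the percent of probes above background (permutation p = 0.387) and r = 0.06 with the array's 75th percentile (permutation p = 0.857), n = 12. The corresponding rho was -0.24 (permutation p = 0.443) and -0.13 (permutation p = 0.682), and r without the 2 farthest arrays was 0.14 and 0.09. Per log2 unit of the globin level Alas2 rose by 1.01 units and Slc4a1 by 0.46, while Fech changed by -0.09. For Hba-a1, Hbb-b1 and Hbb-b2, each set against the mean of the other 2, the slopes were 0.95, 0.94 and 1.07. Alas2 thus moved as steeply as the globins and the dim Slc4a1 less so.

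The balance of Hba-a1, Hbb-b2 or Alas2 with Hbb-b1 within an array spanned less than either gene of the pair. That of Slc4a1 or Fech with Hbb-b1 spanned less than Hbb-b1 but more than Slc4a1 or Fech itself. The log2 difference of Hba-a1 minus Hbb-b1 was 1.86 ± 0.10 at 20 months and 1.71 ± 0.15 at 6 months (SD, n = 6 each), and it spanned 0.47 over the arrays where Hbb-b1 itself spanned 1.86. The ages differed in it by 0.14 (two-sided exact permutation p = 0.0779, 0.234 adjusted over 5 such differences). Hbb-b2 minus Hbb-b1, the balance of the 2 beta probes, was -1.70 ± 0.18 at 20 months and -1.85 ± 0.12 at 6 months (exact permutation p = 0.126). Alas2 minus Hbb-b1 was -4.49 ± 0.14 at 20 months and -4.61 ± 0.19 at 6 months (exact permutation p = 0.234). Signals of different probes are not comparable as levels, so only the differences between ages and the spans bear reading. None of the 5 differences passed, the other two being Slc4a1 and Fech minus Hbb-b1 (exact permutation p = 0.208 and 0.160). Slc4a1 minus Hbb-b1 spanned 1.29 over the arrays where Slc4a1 itself spanned 1.08 and Hbb-b1 1.86. Fech minus Hbb-b1 spanned 1.79 where Fech spanned 0.83.

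Of the other globin genes, Hba-a2, the other adult alpha gene, followed the members most closely. It ran from 8.001 over 8.61 to 9.36 at 20 months, against 7.78, 8.11 and 8.92 at 6 months, with r = 0.973 to the globin level over 12 arrays, and it shares its messages with the Hba-a1 probe. Its difference of 0.39 ± 0.27 between the ages did not pass (adjusted p = 0.764, limma). A probe for a beta globin transcript model, singled out after its values were seen, ran from 1.57 over 2.32 to 3.41 at 20 months, against 1.26, 1.63 and 2.34 at 6 months. Its r to the globin level was 0.965, its difference 0.70 ± 0.28 and its adjusted p 0.585 (limma). Which beta message this probe reads is uncertain. The embryonic beta-like gene Hbb-bh1 was detected over background in 2 of 6 old and 4 of 6 young mice and had r = -0.21. Hba-x and Hbb-y, the embryonic chains, Hbq1 and Ahsp, the chaperone of free alpha globin, stood above background on at most 2 of the 12 arrays. Of the 11 genes of the globin list on the array, which counts Ahsp, 5 passed the filter, 0 rose and 0 fell, beside 0.257% of all probes called.

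The remaining genes of haem synthesis had weak relations to the globin level. All 15 on the array passed the filter, of which 0 rose and 0 fell between the ages. The list had a median change of -0.08, beside -0.02 over all probes. Over the 13 that are not members, r to the globin level ran from -0.50 for Slc25a38 to 0.50 for Slc25a37, the mitochondrial iron carrier of erythroid cells. Smallest p after Alas2 had Uros (-0.27 ± 0.18), Alas1, the housekeeping form of the first enzyme (-0.20 ± 0.14), and Abcb10 (-0.12 ± 0.10). The adjusted p of these 3 was 0.763, 0.768 and 0.7998 (limma).

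Genes of the red cell membrane were mostly below background. Of 20 on the array 9 passed the filter, with 0 called. The spectrin gene Spna1 and the blood group genes Rhag and Rhd stood above background on 0 of 12 arrays, Spnb1 on 5, Ank1 on 3 and Epb4.2 on 2. Among those that passed, r to the globin level ran from -0.34 to 0.29 without Slc4a1. Smallest p had Tmod1, which caps actin filaments (0.23 ± 0.10, adjusted p = 0.624), Aqp1, the water channel (-0.16 ± 0.10, adjusted p = 0.727), and Ermap (0.12 ± 0.08, adjusted p = 0.756, all limma). Aqp1 is also made by endothelium, so the list is not one of red cells alone.

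Of the 10 transcription factors of erythroid precursors, 6 failed the filter. Gata1 and Nfe2 stood above background on 0 of 12 arrays, Klf1 and Gfi1b on 1, Bcl11a on 2 and Myb on 3. The 4 that passed, Lmo2, Lyl1, Zfpm1 and Tal1, were above background on all 12 arrays and had 0 called, a median change of 0.07 and r between 0.03 and 0.29. Their changes were 0.16 ± 0.11 for Lyl1, 0.10 ± 0.10 for Zfpm1, -0.08 ± 0.11 for Tal1 and 0.04 ± 0.12 for Lmo2, with adjusted p of at least 0.773 (limma). Lmo2, Lyl1 and Tal1 are also used by endothelial cells.

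Of 23 other late erythroid genes on the array 20 passed the filter. Their r to the globin level had a median of -0.03 and a lowest value of -0.40, and 2 genes had r above 0.8. Mkrn1, a ubiquitin ligase gene, had r = 0.853 with the globin level. It ran from 0.61 over 0.68 to 0.96 at 20 months, against 0.49, 0.68 and 0.85 at 6 months, and its 3 highest arrays were 20 months replicates 2 and 3 and 6 months replicate 5. Bpgm, which makes the 2,3-bisphosphoglycerate of red cells, had r = 0.578, and Car1, Car2, Bnip3l and Blvrb had r between -0.18 and 0.30. Between the ages 0 of the 20 were called, with a median change of 0.02. The smallest p had Ube2l6 (0.17 ± 0.08), Bpgm (0.20 ± 0.11) and Gpx1 (-0.15 ± 0.08), whose adjusted p lay between 0.652 and 0.714 (limma).

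Genes that take up haemoglobin, haem and iron had weak relations to the globin level too. Of the 17 on the array 14 passed, 0 were called, and r to the globin level ran from -0.46 to 0.39. Hp, which encodes the haemoglobin-binding haptoglobin, averaged 7.76 ± 0.23 at 20 months and 8.31 ± 0.39 at 6 months (difference -0.56 ± 0.17, adjusted p = 0.357, limma). The haem oxygenase gene Hmox1 differed by 0.16 ± 0.09, the iron exporter gene Slc40a1 by -0.40 ± 0.23 and the scavenger receptor gene Lrp1 by 0.13 ± 0.08, with adjusted p from 0.724 to 0.758 (limma). Of the other haem proteins of the globin fold, Ngb was called with a difference of 0.97 ± 0.15 (adjusted p = 0.0160, limma). Its dim probe was over background in 6 of 6 mice at 20 months but 1 of 6 at 6 months, so it passed the filter mainly through the old mice and the size of the difference is uncertain. Its r to the globin level was 0.38, and those of Cygb and the myoglobin gene Mb were 0.09 and -0.39. Mb was highest in 20 months replicate 1 and 6 months replicate 1, the arrays with high heart muscle markers.

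The genes most like the globins were sought by Pearson r with the globin level over the 12 arrays after the mean of each age was removed. Of 20634 gene names, members aside, 13 had r above 0.8 and 5 above 0.9. Among genes with standard names the highest included Hba-a2 (0.972), Zdhhc22 (0.960), Cyp3a13 (0.849), Slc6a20a (0.848), Mkrn1 (0.841), Socs3 (0.789), Has1 (0.774), Tyms (0.757), Tra2b (0.728), Rnf157 (0.726) and Orc2l (0.720). Zdhhc22, of the palmitoyltransferase family, ran from -1.11 over -0.49 to 0.28 at 20 months, against -1.10, -0.93 and -0.11 at 6 months. Hba-a2 spanned 2.99-fold over the arrays and Mkrn1 1.38-fold. These r values describe the 12 arrays and share each array's scaling, and Hba-a2 shares its messages with the Hba-a1 probe.

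With age and the globin level fitted together over 27573 probes, members aside, 5 probes were called for the globin level, which is 0.0181% of those tested, all with a positive slope. Among them were Hba-a2 (slope 0.89 ± 0.08 per log2 unit, adjusted p = 0.00520), the beta globin transcript model (0.94 ± 0.10, adjusted p = 0.00631), Zdhhc22 (0.77 ± 0.09, adjusted p = 0.00843) and the predicted gene Gm5226 (0.94 ± 0.11, adjusted p = 0.00843), all limma. Hba-a2 and the beta globin model read the same or near-identical messages as the probes that form the globin level. Their calls are therefore not independent of that level.

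At the other end stood Mlana, a melanocyte gene, with r = -0.938 after the age means were removed and 0.02 without that step. It ran from -1.46 over -1.18 to -0.85 at 20 months, against -2.48, -2.03 and -1.63 at 6 months, without overlap. It rose with age by 0.87 ± 0.14 (adjusted p = 0.0232, limma), and by 1.10 ± 0.09 with the globin level as a term (adjusted p = 0.000276, limma). Mlana was singled out by its r to this same level, which by itself lowers the standard error and p with the term. Its slope on the globin level was -0.43 ± 0.07 and did not pass (adjusted p = 0.348, limma). The next lowest were Brp16 (-0.845), Cby1 (-0.807), Prss51 (-0.793), Atp5s (-0.777) and Pcbp3 (-0.769).

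No marker list of another blood cell type passed the test against the globin level. Lists were summarised for each array as the mean of their genes centred on the 12-array mean, members left out. Platelet markers (8 genes) had r = 0.418 and rho = 0.476 with the globin level (permutation p = 0.177 and 0.123), and their level lay between -0.16 and 0.46 at 20 months and between -0.52 and 0.28 at 6 months. Neutrophil markers (6 genes) had r = 0.169 and rho = 0.336 (permutation p = 0.603 and 0.290), B cell markers (4 genes) r = 0.200 and rho = 0.049 (permutation p = 0.531 and 0.887), and T and NK cell markers (10 genes) r = -0.042 and rho = 0.189 (permutation p = 0.907 and 0.559). Monocyte and macrophage markers (13 genes) had r = 0.275 and rho = 0.322 (permutation p = 0.385 and 0.309). Detection was mixed within these lists: 6 of 13 neutrophil markers, 7 of 13 platelet markers and 12 of 13 monocyte and macrophage markers were above background on all 12 arrays, among them Csf3r, Pf4 and Itgb3. Of the neutrophil genes Ltf and Mmp8 stood above background on 0 of 12 arrays and Ngp on 2, and of the platelet genes Gp5 and Tubb1 on 0 and Itga2b on 2. Heart muscle markers (13 genes) had r = -0.250 and rho = -0.084 (permutation p = 0.451 and 0.8004).

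Over the 16 lists tested none passed after adjustment. The 15 lists other than the globins had r between -0.314 (fat markers) and 0.418 and rho between -0.280 and 0.476, with adjusted permutation p of at least 0.834 for r and 0.682 for rho. Without the 2 arrays farthest from the median globin level the platelet r was 0.433 (permutation p = 0.212) and the neutrophil r 0.040 (permutation p = 0.913). Without the 3 arrays high in heart muscle or T and NK cell markers, r was higher for the blood cell lists: 0.657 for platelets, 0.556 for T and NK cells, 0.522 for monocytes and macrophages, 0.462 for neutrophils and 0.380 for B cells. Without 20 months replicate 1 alone it was 0.598 for platelets, 0.446 for monocytes and macrophages and 0.359 for neutrophils. That array had the highest level of the platelet (0.46), neutrophil (0.71) and monocyte and macrophage (0.47) lists. Likewise 6 months replicate 4 was left out for its own T and NK cell level (1.63). These higher r values are therefore not independent of the choice of arrays. Without 6 months replicate 2 alone r was lower: 0.315 for platelets, 0.126 for monocytes and macrophages and -0.051 for neutrophils. It was then -0.031 for B cells and -0.230 for T and NK cells. No list passed in any of these cases, and the lowest adjusted permutation p over all 16 lists was 0.434, 0.420 and 0.605, in this order. Within each age the platelet r was 0.065 at 20 months and 0.539 at 6 months. The globin list without its members, which is Hba-a2 and the dim Hbb-bh1, had r = 0.651 and rho = 0.650 (adjusted permutation p = 0.348 and 0.416). With so few arrays, an r of the size seen for the blood cell lists cannot be told from 0, and the tests do not show that these lists are unrelated to the globins.

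**Figure D5:**
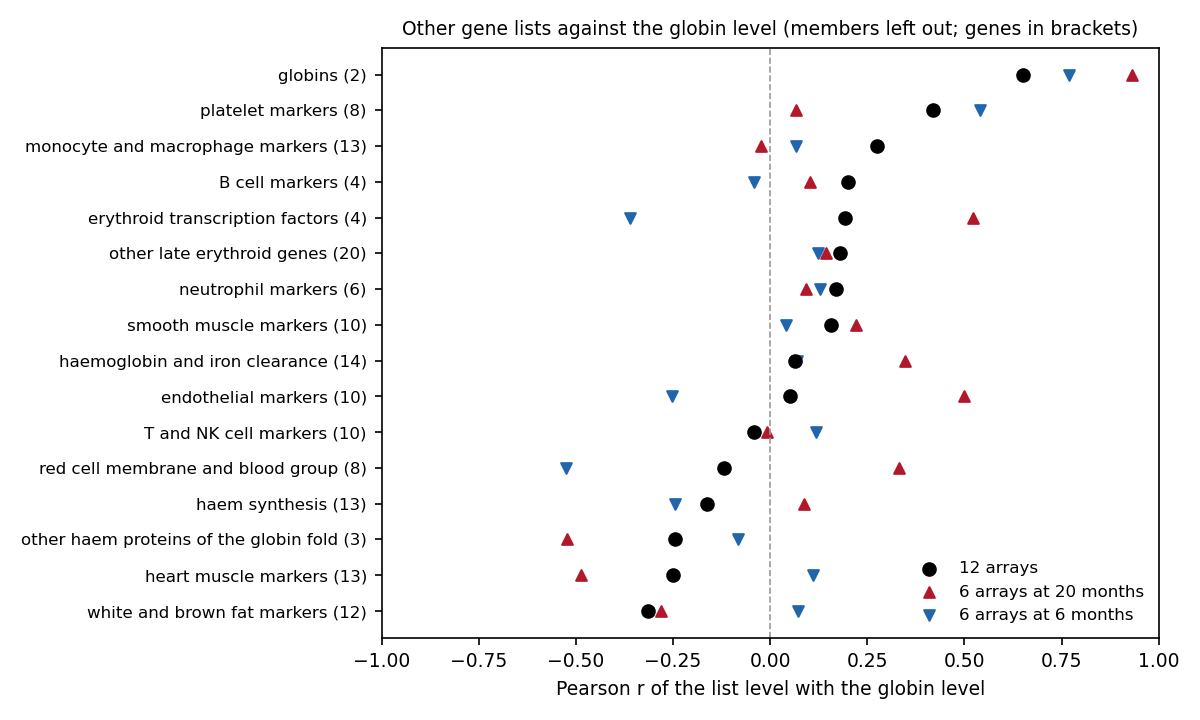
Pearson r (x axis) of the level of 16 gene lists with the globin level over 12 arrays (black circles), the 6 arrays at 20 months (red) and the 6 at 6 months (blue), with the number of genes in brackets. Over 12 arrays the globin list (Hba-a2 and Hbb-bh1) is highest at 0.65 and the other lists lie between -0.31 and 0.42.

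The globin level also allows the age comparison of all other probes to be made at equal globin level. Without the globin term 71 probes were called for age, and with it 36 (0.131% of 27573 tested: 34 higher at 20 months, 0.123%, and 2 lower, 0.00725%), of which 35 were among the 71 (limma). All 71 kept the sign of their change with the term, which says little, as they were picked in these data for changes large against their error. The median size of their change was 1.01 times that without the term, and the median standard error was 1.17 times as large. The 36 calls became 20 and 11 without 6 months replicates 2 and 5, and 23, 19, 11 and 21 without 20 months replicates 3, 4, 5 and 6. They became 22 with quantile normalization and 22 with the deposited value table.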

How the data were processed

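RNA of the descending aorta from 6 mice at 20 months and 6 at 6 months was labelled with Cy3 and hybridised to 1-colour arrays. Scanner images were read by the authors in Agilent's Feature Extraction software, version 10.7.1.1, per the file headers (design 028005, probe positions on mm9). The deposited scanner files hold an intensity for each spot, the processed green signal, with background subtracted and detrended and no scaling between arrays. A deposited table of log2 values, centred on each probe's median, comes without stated steps and served as an alternative. Its columns had medians from -0.03 to 0.01 and followed the centred scanner values of the same arrays with r from 0.915 to 0.982 and slopes near 1 (0.863 to 1.01), so scale and direction are settled and the scaling between arrays is not given in the sources used here. It holds 0 columns of other samples.

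The processed signal was taken to log2, outlier-flagged spots were left out, repeated spots were merged by their mean, and arrays were aligned by subtracting the 75th percentile of their gene probes. Of 55681 gene probes 55630 were kept, and 27579 cleared background in no fewer than 6 arrays of 12. Ages were compared over these using the limma package (version 3.58.1, linear fit with moderated variances) in R (version 4.3.3), with age as the only term and a probe called at a Benjamini-Hochberg adjusted p under 0.05. Correlations used 100000 permutations, and all orders for fewer than 10 arrays. The procedures were tested on simulated data. For genes of the lists the brightest probe on average was taken. List genes were matched by array name or RefSeq accession (GRCm38.p6, names only).

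Named genes were the 6 members, from each pathway list the called genes or otherwise up to 4 with the smallest p, and the 12 genes highest and 6 lowest in r with the globin level, clone and model names left out. Some genes these rules name are not reported here. The members and lists were chosen with earlier results of these data known. Alternatives were normexp (offset 50), quantile and median scaling, the percentile over probes detected on all arrays, the value table, other filters, slide and replicate blocks, each slide alone, other variance settings, other probe choices, each array left out, and the 3 arrays with markers of other tissues left out. Precision is limited by the number of arrays, 6 per age. The limma p-values set differences against the spread between these mice, and the permutation p-values set an r or a difference against reordered arrays.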

Additional observations from a re-analysis of the deposited data

Results flagged for a closer look

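In groups of 6 arrays, the highest or lowest array was compared with its nearest neighbour relative to the whole range, for the 6 members and 16 lists at both ages. Of 44 such groups 5 had an array apart, and chance gives about 1 in 20. Hbb-b2 was high in 6 months replicate 5, at 3.69, the array that also led its age in the other globins. The level of the red cell membrane list without Slc4a1 was high in 20 months replicate 3, at 0.118, which is small in size. The T and NK cell marker level was high in 6 months replicate 4, at 1.63. The heart muscle marker level was high in 20 months replicate 1, at 2.98, and the fat marker level was high in the same array, at 0.621.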

How the results depend on the processing

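No member was called for age under any of 30 alternatives. The difference of Hba-a1 ran from 0.23 to 0.93 over them (lowest adjusted p = 0.366, limma), and that of Hbb-b1 from 0.00 to 0.85, with the lowest values on slide 2 alone. Of the 15 pairs of members 9 or 10 passed under the 20 alternatives run. The number of probes called for age was 71 and became 44 without a filter, 23 with the replicate block, 114 with array weights, and 1, 0 and 0 on slides 1, 2 and 3 alone, where 4 arrays enter. Leaving out 1 array gave 40 to 75 calls, the fewest without 20 months replicates 2 and 4 (40 each), then 6 (44), 6 months replicate 3 (45) and 20 months replicates 3 (46) and 5 (47). With the globin term, 36 calls became 22 with quantile normalization, 22 with the value table and 11 to 34 without 1 array. Against the globin level, 0 lists passed, and 1 (the globin list without its members) with normexp (r = 0.913) and with the value table (r = 0.775), and 0 without any 1 array. The same replicate numbers stand for different mice. Only 1 of 6 same-numbered pairs had correlated deviations above 0.1, so the numbers were not taken to pair the samples, and the replicate block changed no member's call. The Slc4a1 probe, though well above background by the scanner's criterion, was dim, which limits what its values can show. Causes of these changes were not tested.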
